A study of Mus musculus with 8 samples.

Results

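The 3 genes Ghrl, Mboat4 and Ghsr were followed in whole small intestine from mouse embryos at stage E18.5, shortly before birth. There were 4 control samples and 4 samples with a conditional Rfx6 deletion. Ghrl encodes the hormone ghrelin, Mboat4 the enzyme that acylates it (ghrelin O-acyltransferase), and Ghsr the receptor of the acylated hormone. They were taken as a set for this ligand, enzyme and receptor relation, and every array probe annotated to each was used, which gave 1 probe and 1 spot per gene among 36095 distinct gene names and 55681 distinct probes. In the mutants Ghrl was 29.0-fold lower than in the controls, Mboat4 was lower on every mutant array without passing the test across genes, and Ghsr was not well above background on any of the 8 arrays.

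All 8 samples carried a floxed Rfx6 allele, that is, an allele flanked by sites at which the recombinase Cre cuts. Control replicates 1, 3 and 4 were Rfx6 fl/+ and control replicate 2 was Rfx6 fl/fl, and no Cre is named for them. The 4 mutants were Rfx6 fl/fl with Ngn3-Cre, which is active in the Neurog3-positive progenitors of endocrine cells. Effects of Cre and of Rfx6 loss therefore cannot be told apart. The labels do not say which exons were floxed, whether an RNA sample came from 1 embryo or several, or whether embryos shared a litter, so p-values measure the spread between these 8 samples. The tissue was taken whole, and for every gene below fewer cells of a type and less RNA per cell cannot be told apart.

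Ghrelin is made as a prepropeptide by X/A-like endocrine cells, which are most abundant in the stomach and also lie scattered along the small intestine. Mboat4 attaches a medium-chain fatty acid, typically octanoate, to a serine of proghrelin in the endoplasmic reticulum, and prohormone convertase 1 (Pcsk1) then cuts out the mature peptide. Acylated ghrelin activates Ghsr, a G protein-coupled receptor best known from the hypothalamus and pituitary, where it raises feeding and growth hormone release. Esterases in plasma and tissue remove the acyl group, and Leap2 is a liver and gut peptide that blocks the receptor.

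The probes are shown because each gene rests on a single 60-base sequence. Positions are given as in the array files, on build mm9, and exon annotation of that build was not used here. The Ghrl probe lies at chr6:113666114-113666173 on the minus strand, the Mboat4 probe at chr8:35187713-35187772 on the plus strand and the Ghsr probe at chr3:27276818-27276877 on the plus strand. The Ghrl probe is shown for 30 bases from its base 20, with the hexamer AATAAA, the canonical polyadenylation signal, in capitals. The Mboat4 probe is shown whole, with a stop codon in capitals that follows 19 open codons in the frame of its first base. The Ghsr probe is shown for its first 30 bases, and the frame of its first base is open over all 20 codons.
Ghrl: taccactttaagAATAAAtgttcacctgta
Mboat4: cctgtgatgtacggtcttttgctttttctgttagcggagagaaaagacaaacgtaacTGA
Ghsr: gttgaggttatgatggacagacttaacact
The GC content of the probes was 41.7% for Ghrl, 41.7% for Mboat4 and 35% for Ghsr.

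Levels are log2 processed intensity of the spot minus the log2 75th percentile of its array, so 0 is a bright spot of that array, and 1 unit is a doubling. The 75th percentile lay between 788 and 1027 across arrays, and 60.9% to 70.7% of spots were well above background, a call made by the scanner software. Mutant replicate 1 stood apart, with a mean correlation to the other arrays of 0.978 against 0.990 to 0.991 for the others. The small intestine markers (Vil1, Fabp1 and 4 others) were bright in both groups, with none of 6 called. Rfx6 itself read -3.32, -3.20, -3.48 and -2.93 in control replicates 1 to 4 and -5.52, -3.37, -3.02 and -3.02 in mutant replicates 1 to 4, and its probe is no check of the labels if it lies outside the deleted part. Differences were tested with limma over 25330 genes, with a gene called at an adjusted p under 0.05. 14 genes were called lower, 0.0553% of those tested, and 1 was called higher (0.00395%).

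The Ghrl level was 3.75, 3.76, 3.17 and 3.30 in control replicates 1 to 4, and -1.33, -1.14, -1.60 and -1.39 in mutant replicates 1 to 4. The 4 controls lay close together, the 4 mutants lay close together, and the groups did not overlap. The control mean was 3.49 ± 0.30 and the mutant mean -1.37 ± 0.19 (SD over 4 arrays in each group). Ghrl thus differed by -4.86 (SE 0.167, 95% interval -5.24 to -4.48, limma adjusted p = 4.79e-06). On the linear scale 3.45% of the control level was left, with an interval of 2.65% to 4.48%.

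**Figure D1:**
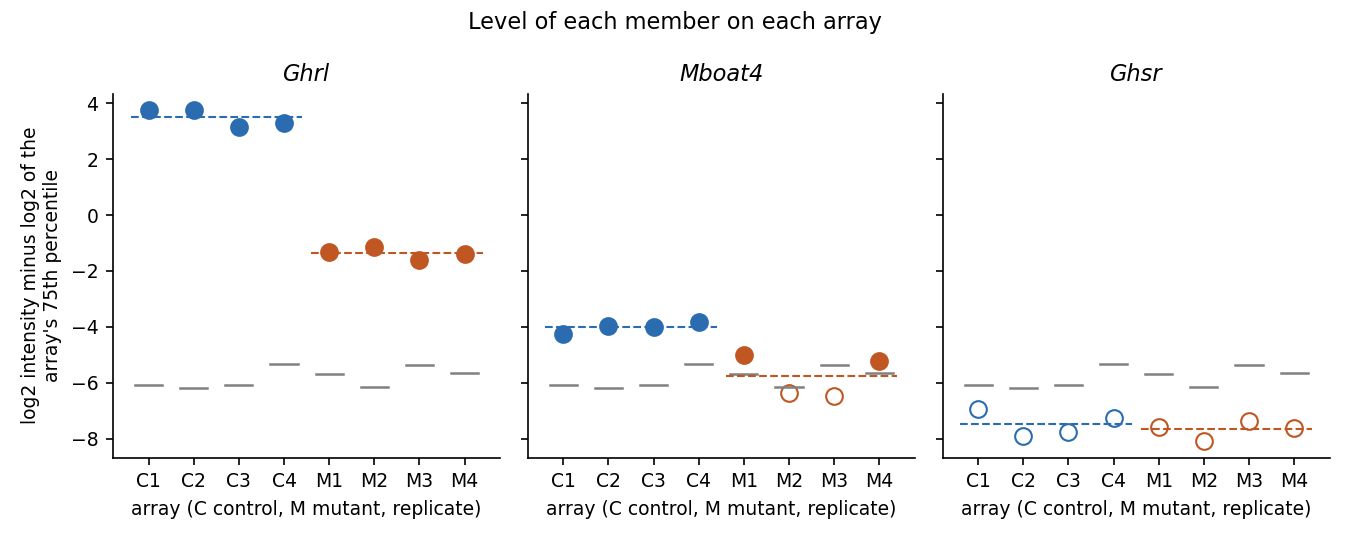
Level of Ghrl, Mboat4 and Ghsr on each array (log2 processed intensity, with the array's 75th percentile at 0), with controls and mutants apart, bars at the group means and filled points for spots well above background. Ghrl drops from between 3.17 and 3.76 to between -1.60 and -1.14, Mboat4 is lower on every mutant array, and the Ghsr points of both groups mix and are all open.

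Ghrl was 1 of the 14 genes called lower, and only Gip had a larger fall among the 25330 genes tested. The fall did not rest on the scaling. The mean pixel intensity of the Ghrl spot was 10251 to 15601 on control arrays and 414 to 508 on mutant arrays, over a local background of 49 to 55. Even the mutant spots were thus well above background on 4 of 4 arrays, so ghrelin mRNA was reduced and still measurable. Ghrl also fell within each row of the slide, by 4.99 in row 1 and by 4.73 in row 2, each holding 2 controls and 2 mutants.

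**Figure D2:**
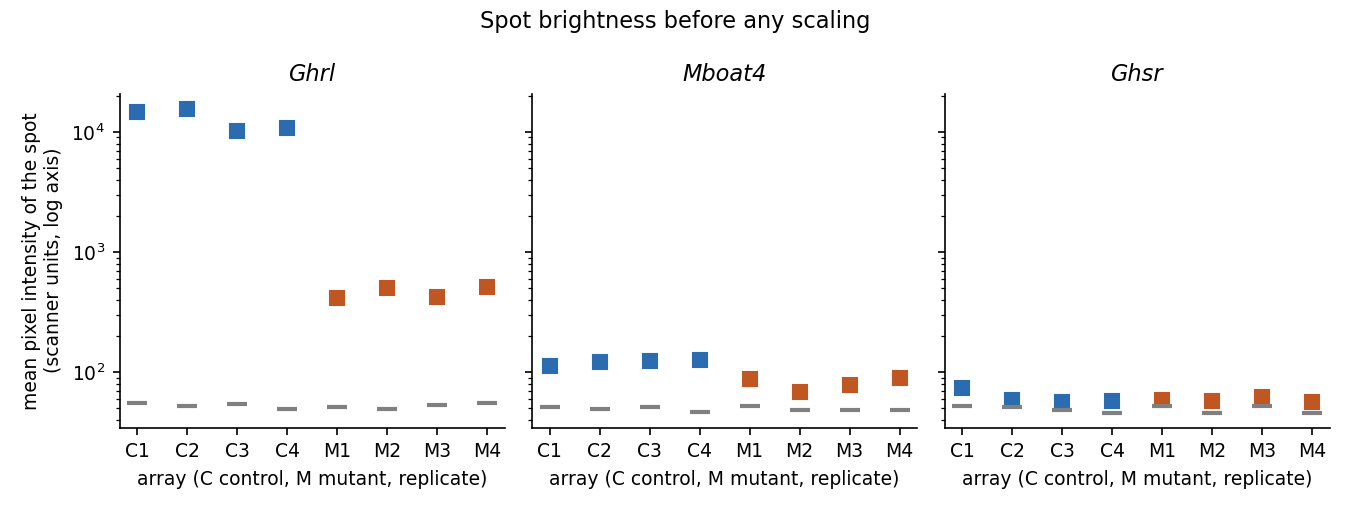
Mean pixel intensity of the Ghrl, Mboat4 and Ghsr spots on each array before any scaling (log axis, scanner units), with grey bars at the local background of the spot. Ghrl stays above background in the mutants, Mboat4 lies 113 to 127 in controls and 68.5 to 90.2 in mutants, and Ghsr lies just above its background on all arrays.

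Mboat4 was a dim gene in this tissue. Its level was -4.26, -3.98, -4.02 and -3.82 in control replicates 1 to 4 and -5.0, -6.38, -6.48 and -5.22 in mutant replicates 1 to 4. All 4 mutants were below all 4 controls, with mutant replicates 2 and 3 the lowest. The spot was well above background on 4 of 4 control arrays and on 2 of 4 mutant arrays, replicates 1 and 4.

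The mean Mboat4 level was -4.02 ± 0.18 in controls and -5.77 ± 0.77 in mutants (SD over 4 arrays in each group). The difference was -1.75 (SE 0.338, 95% interval -2.52 to -0.98) and was not called, with a limma adjusted p of 0.281 and an unadjusted p of 6.64e-04. An exact two-sided permutation test over the 8 arrays gave p = 0.0286, the smallest that 4 against 4 allows, and 4.67% of all genes tested had groups that did not overlap (1.63% lower in mutants). As measured, Mboat4 was 3.37-fold lower, with an interval of 1.98 to 5.74, and 2.67-fold lower when mutant arrays below the lowest level that was well above background were set to it. By size of fall it ranked 12 of 25330 genes and by unadjusted p it ranked 59.

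How far Mboat4 differed depended on the background correction. The spot read 113 to 127 pixel units in controls and 68.5 to 90.2 in mutants over a local background of 47 to 52, so a large share of the mutant signal was background. With normexp, which models the background and adds an offset, the difference was -0.45 (limma adjusted p = 0.395), and in the authors' deposited value table the Mboat4 difference was -0.50 (limma adjusted p = 0.224). When limma weighted the arrays by quality, which gives mutant replicate 1 a weight of 0.124, it was -2.18 and passed (adjusted p = 0.0186).

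The Ghsr level was -6.93, -7.89, -7.77 and -7.25 in control replicates 1 to 4 and -7.58, -8.09, -7.35 and -7.61 in mutant replicates 1 to 4. The groups overlapped, and the spot was not well above background on any array, with a pixel intensity of 56.7 to 73.1 in controls and 56.4 to 62.6 in mutants over a background of 46 to 52. On 7 of the 8 arrays the software had replaced the value by a surrogate for low signal. In the fit without a filter on dim probes the difference was -0.20 (SE 0.25, 95% interval -0.77 to 0.38, limma adjusted p = 0.939), and the exact two-sided permutation test gave p = 0.486. No fold is given, since both groups were at background, and a difference in Ghsr was not detectable at this signal.

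Among 12 gut peptide hormone genes, a list that was chosen with earlier results of these data known, 8 were called lower, Ghrl included, with a median difference of -2.11 beside 0.03 over all genes. The other 7 were Gip, Sst, Nts, Gcg, Cck, Pyy and Sct, and the 4 that were not called were Iapp, Insl5, Gast and Tac1. Sst, the somatostatin gene, changed by -4.52 (limma adjusted p = 3.39e-06). Nts, which encodes neurotensin, changed by -3.98, and Gcg, the source of the glucagon-like peptides, by -3.42. Cck, Pyy and Sct, the genes of cholecystokinin, peptide YY and secretin, changed by -2.49, -1.58 and -0.997, and Sct lost its call in 10 of 20 alternative analyses. Gip, the glucose-dependent insulinotropic polypeptide, was well above background on 1 of 4 mutant arrays. With mutant arrays below the lowest level that was well above background set to it, Gip was 213.5-fold lower in the main processing. Across the alternatives the Gip difference ranged from -8.32 to -5.58, so that fold does not hold for all of them.

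**Figure D3:**
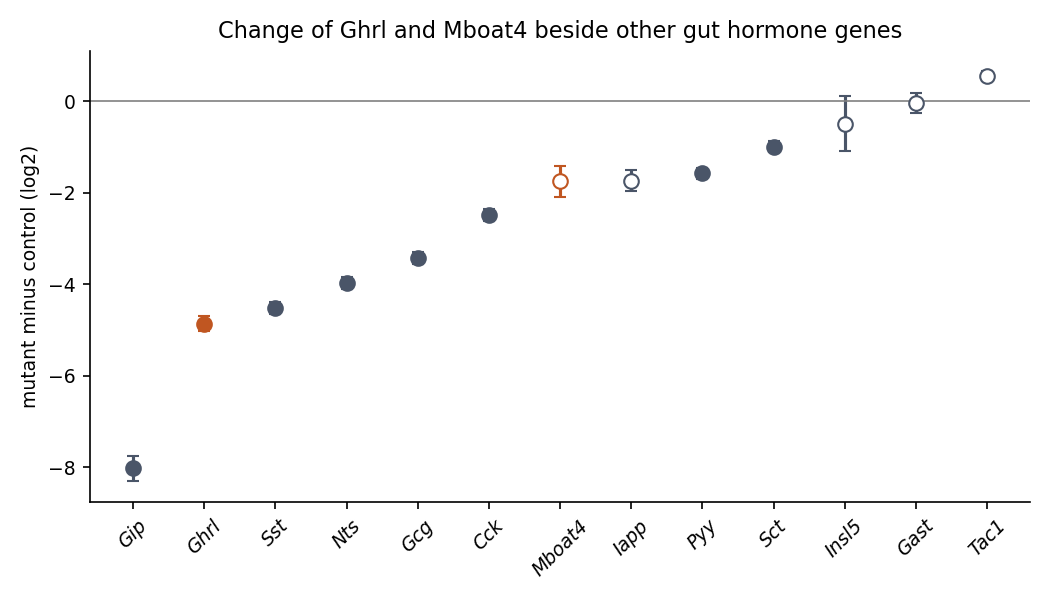
Difference between mutants and controls (log2, mutant minus control, with standard errors) for Ghrl, Mboat4 and the other 11 gut hormone genes, ordered by size, with filled points where limma called the gene. Ghrl at -4.86 lies between Gip at -8.02 and Sst at -4.52, and Mboat4 at -1.75 is open.

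The fall of Ghrl was set against that of 8 other genes within each array, with exact two-sided permutation tests adjusted over the 8 pairs. Ghrl fell more than Sct (difference of the changes -3.86, SE 0.159), Pyy (-3.28, SE 0.254), Cck (-2.37, SE 0.155), Gcg (-1.44, SE 0.231) and Nts (-0.88, SE 0.216), each with an exact p of 0.0286, the smallest possible, and an adjusted p of 0.0327. Nts missed the threshold without any one of the 4 mutants, when the adjusted exact p was 0.0653. The other two pairs, with Mboat4 and Gip, are not read as sizes, since Mboat4 was well above background on 2 of 4 mutant arrays and Gip on 1 of 4, which limits the fall that either could show. Ghrl and Sst did not differ beyond the spread of the arrays (-0.34, SE 0.258, adjusted exact p = 0.343), but with normexp the difference was -0.80 and passed (adjusted exact p = 0.0286).

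None of the 6 genes that process proghrelin was called, and their median difference was 0.05. Pcsk1, the convertase that releases mature ghrelin, read -1.99, -1.79, -1.98 and -1.76 in controls and -1.52, -1.87, -1.79 and -1.92 in mutants, which overlap (difference 0.11). Furin, a general convertase, differed by 0.23.

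The genes that supply and activate medium-chain fatty acids, from which the acyl donor of Mboat4 derives, gave 0 of 8 called and a median of -0.04. Acadm, the medium-chain acyl-CoA dehydrogenase, differed by 0.14, the octanoyltransferase Crot by -0.10 and the acyl-CoA synthetase Acsl5 by -0.09. Of 11 acyltransferases of the MBOAT family none was called, and 9 were higher and 2 lower. Groups did not overlap in 1 of the 11, Mboat4, beside 4.67% of all genes tested. Porcn, which acylates Wnt proteins, differed by 0.06, Hhat, which acylates Hedgehog proteins, by 0.24, and the Hhat-like gene Hhatl by 0.45. Of the genes that remove the acyl group or break ghrelin down, 4 of 5 could be tested and none was called. The deacylating esterases Bche and Lypla1 differed by -0.33 and -0.23, and Notum, a carboxylesterase, by 0.16. In Bche and Lypla1 mutant replicate 1 was the lowest array, at 0.72 and 1.80, and without it the differences were -0.01 and -0.14.

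On the receptor side, 10 of 14 signalling and modulator genes could be tested and none was called, with a median of 0.05. Ghsr, Drd1, Htr2c and Gpr83, the last 3 known partners of the receptor, were too dim. Leap2, the receptor's endogenous antagonist, read 4.95, 4.89, 5.09 and 4.97 in controls and 5.15, 4.71, 4.28 and 4.50 in mutants. Its groups overlapped through mutant replicate 1 (difference -0.32, limma adjusted p = 0.821). The G protein genes Gnaq and Gna11 differed by -0.16 and 0.16, Arrb1, a beta-arrestin, by 0.24, and the melanocortin receptor Mc3r by 1.00 with an SE of 0.554. Mrap2, an accessory protein of Ghsr, differed by -0.05 with an SE of 1.01, since it read -5.52 on control replicate 3 and -5.40 on mutant replicate 4 and -2.31 to -1.87 on the other 6 arrays. Among the receptors related to Ghsr, 5 of 7 were tested and none was called, with Ntsr1 at -0.06, Nmur2 at 0.08 and Gpr39 at 0.23.

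Ghrelin cells carry receptors through which nutrients, hormones and nerves act on secretion. Of 18 such genes 13 were tested and none was called, with a median of -0.06. Adrb1, the beta-1 adrenergic receptor, differed by -0.08, the fatty acid receptors Ffar2 and Ffar4 by -0.07 and -0.34, Gipr, the receptor of Gip, by -0.37, and the somatostatin receptor Sstr3 by 0.60.

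Of 12 transcription factors known from ghrelin cells or their progenitors 11 were tested, 1 was called lower, Isl1, and none higher, with a median of -0.07. Isl1, a LIM homeodomain factor, read -3.85, -4.01, -4.29 and -4.04 in controls and -6.99, -6.32, -6.30 and -6.67 in mutants. Isl1 was well above background on 4 of 4 control arrays and on no mutant array, so it entered the test through the controls alone. It differed by -2.52 (SE 0.173, limma adjusted p = 8.33e-04). With mutant arrays set to the lowest level that was well above background, Isl1 was 3.19-fold lower in the main processing. With normexp the Isl1 difference was -0.63 (limma adjusted p = 0.0413).

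The progenitor factor Neurog3, whose regulatory sequence drives the Cre, was higher on every mutant array without passing. It read 0.05, 0.23, 0.14 and 0.18 in controls and 1.03, 0.72, 0.89 and 0.98 in mutants, which do not overlap (difference 0.76, limma adjusted p = 0.055). It passed in 5 of 20 alternative analyses. Pax4, a factor of early endocrine cells, differed by 0.70 (limma adjusted p = 0.335), and Nkx2-2 by 0.06. Rfx6 differed by -0.50 (limma adjusted p = 0.823), and by 0.10 without mutant replicate 1.

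**Figure D4:**
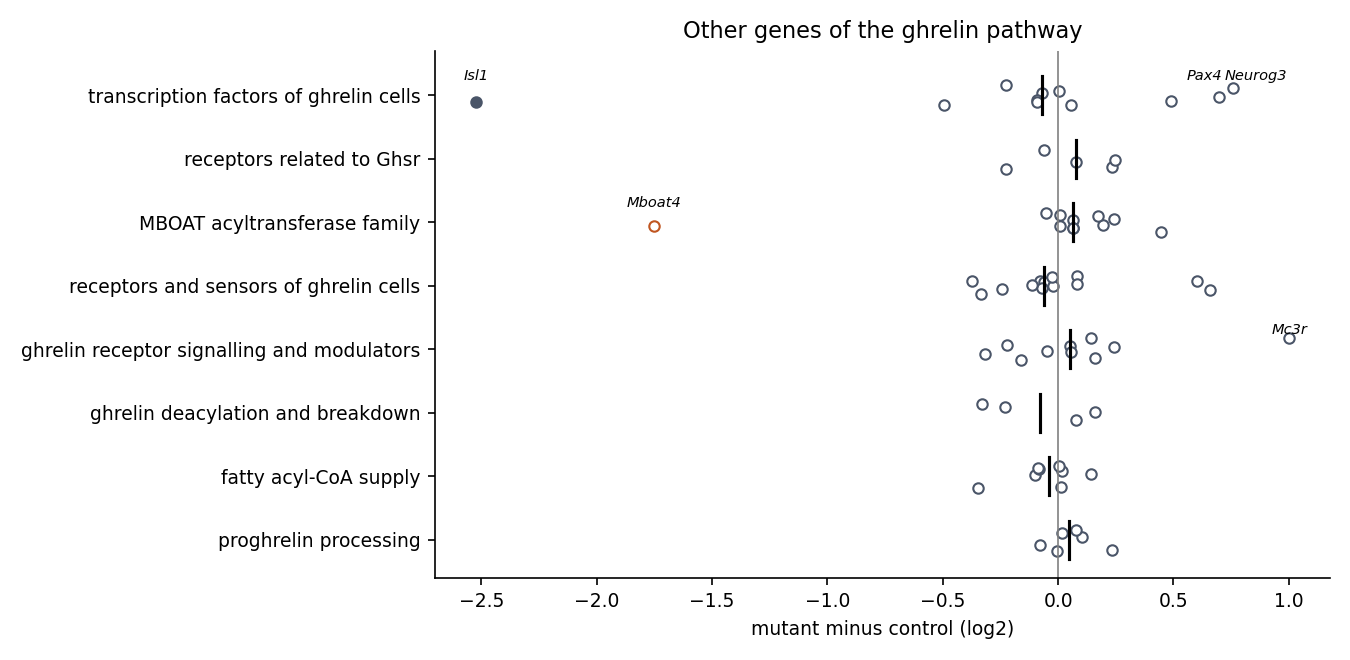
Difference between mutants and controls (log2) for each tested gene of 8 lists around the ghrelin pathway, with a black bar at the median of each list and filled points where limma called the gene. Isl1 at -2.52 is the only filled point among the genes drawn, Mboat4 at -1.75 lies apart from the other acyltransferases, and the list medians lie between -0.08 and 0.08.

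RFX factors bind X-boxes, imperfect inverted repeats, and the promoter of Ghrl was therefore read for them in RefSeq sequence (GRCm38.p6). The search covered the 250 bases before each annotated start on both strands, for the full form GTNNCC, 0 to 3 bases and NGNAAC, and for the single arm GTTGCC. Mboat4 had no entry among the promoter sequences used and was not searched. The full form was in none of 4 Ghrl starts, 1 Ghsr start and 8 starts of the 7 other called hormone genes, and in 4.42% of all 32851 starts. GTTGCC was in 1 of 4 Ghrl starts, in no Ghsr or other hormone start, and in 10.4% of all starts. The Ghrl stretch that holds it, in capitals 20 to 15 bases before the start, is at chr6:113717693-113717759 on the minus strand.
Ghrl promoter: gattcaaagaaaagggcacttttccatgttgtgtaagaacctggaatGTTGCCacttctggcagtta
A match describes the letters of this window and no binding was measured.

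Over the 8 arrays the genes whose levels followed Ghrl most closely, among 14897 with a plain symbol and well above background in all controls, were Cck (Pearson r = 0.994), Nts (0.993), Sst (0.991) and Gcg (0.991). The arrays form 2 groups and share their scaling, so these values mostly rank genes by how cleanly the groups part. The genes closest to Mboat4 were others: Sqle (0.993), Asns (0.978), Bglap (0.977), Scgn (0.975) and Bglap2 (0.973), none of them called. Scgn encodes the endocrine calcium-binding protein secretagogin, Bglap and Bglap2 are near-identical osteocalcin genes whose probes may share signal, Sqle is a sterol synthesis enzyme and Asns makes asparagine. Bglap2 read 0.24, 0.21, 0.23 and 0.04 in controls and -0.54, -1.76, -2.36 and -1.10 in mutants, and Scgn read -3.85, -3.80, -4.02 and -3.52 in controls and -4.47, -5.02, -5.32 and -4.63 in mutants. As for Mboat4, mutant replicates 2 and 3 were the lowest arrays and mutant replicates 1 and 4 lay nearer the controls. Both genes were picked for their correlation with Mboat4 over the same 8 arrays. The shared order was thus largely built in and is no separate result. The differences of Bglap2 and Scgn were -1.62 and -1.06.

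None of the measured genes next to the 3 loci was called. Tatdn2 and Sec13, which flank Ghrl, differed by 0.74 (SE 0.54) and -0.10. Dctn6, which overlaps Mboat4, differed by 0.07 and Leprotl1 on its far side by 0.14. Tnfsf10 and Fndc3b, which flank Ghsr, differed by 0.02 and -0.19. All of these had a limma adjusted p of at least 0.821.

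Levels of other cell types were read beside the fall of Ghrl. Of 5 pan-endocrine markers 1 was called, Scg2 at -1.13 (limma adjusted p = 0.0102). The summed linear level of the 5 was 46.5 to 54.9 in controls and 43.9 to 49.99 in mutants. Most of that sum was Chgb, so it says little about the dimmer Scg2 and Scgn. Stomach, a source of ghrelin, can be carried over at dissection. Its 11 markers summed to 0.515 to 0.551 in controls and 0.471 to 12.7 in mutants. Mutant replicate 3 was highest, through Tff2 at 2.89 and Gkn3 at 2.33. Of the other tested markers, Gkn1 and Muc5ac lay within the range of the controls on that array, and Pgc lay slightly above it. Gkn2, Atp4a, Atp4b, Sox2, Cldn18 and Barx1 were too dim to test. Of these, Gkn2 was also highest on mutant replicate 3, at -5.64, without being well above background. It read -8.14 to -7.33 in controls and -7.85 to -7.40 in the other mutants. None of the other dim markers was highest on mutant replicate 3. Ghrl was -1.60 on that array, the lowest of the 8, and without it the Ghrl difference was -4.78. Without mutant replicate 1 the difference was -4.87 for Ghrl and -2.01 for Mboat4 (limma adjusted p = 0.13). The 6 pancreatic acinar markers summed higher in the mutants, 2.81 to 13.9 against 0.948 to 2.19. All 5 that were tested were higher in mutants, by 1.02 to 6.09, and none was called (lowest limma adjusted p = 0.114). Groups did not overlap in 3 of the 5, beside 4.67% of all genes tested. Among these 3, Cela2a was well above background on 4 of 4 mutant arrays and on no control array. It thus entered the test through the mutants alone, and its lack of overlap is no separate result. The 7 islet markers summed to 3.53 to 4.46 in mutants against 3.67 to 3.82 in controls, most of it Mafa. The part of pancreatic tissue in the levels above was not tested.

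**Figure D5:**
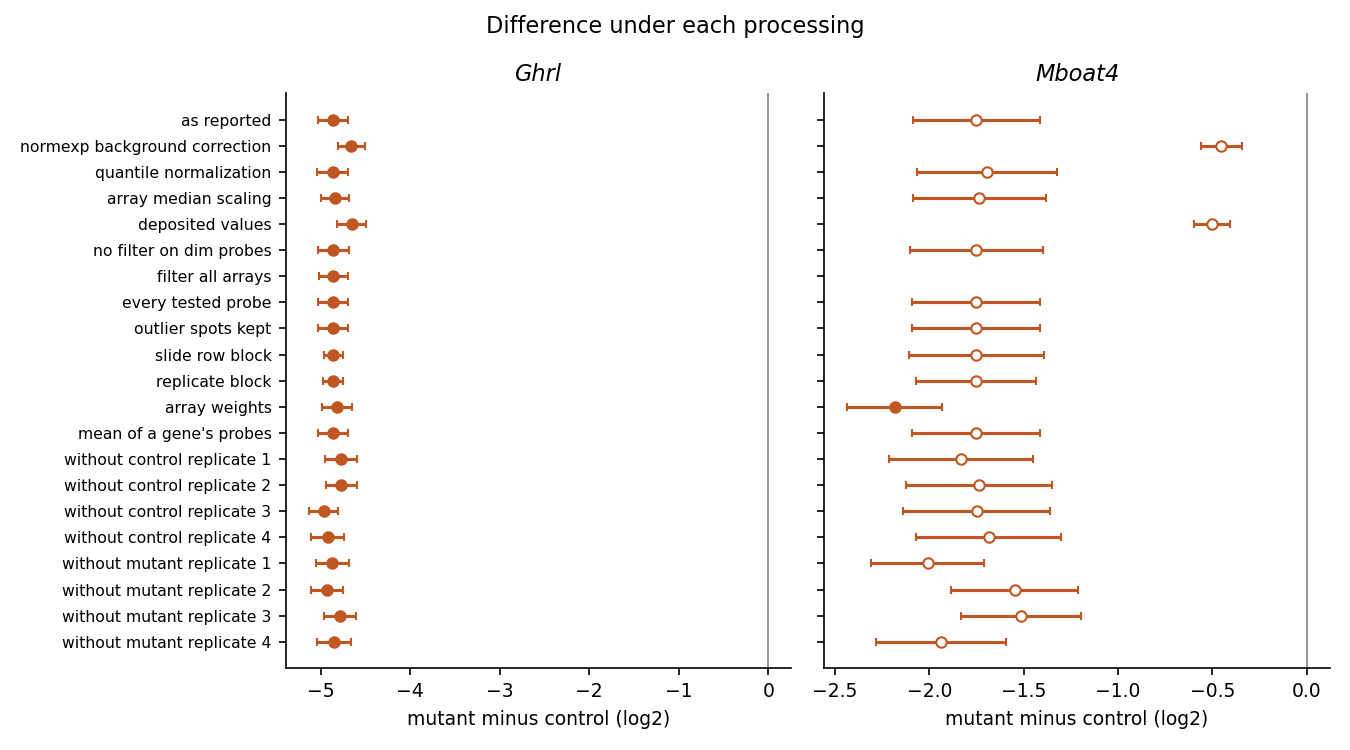
Difference between mutants and controls (log2) for Ghrl and Mboat4 under the main and the alternative analyses, with standard errors and filled points where limma called the gene. Ghrl stays between -4.97 and -4.65 and is filled throughout, while Mboat4 ranges from -2.18 to -0.45 and is filled with array weights only.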

How the data were processed

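The authors deposited linear spot intensity values of 8 single-colour arrays, read with Agilent Feature Extraction 10.10.1.1 per the file headers (design 028005, build mm9). Their processed intensity is background-corrected within each array, with surrogates for low values. The authors also deposited a value table of linear intensity whose processing is not given in the sources used here. Its values ranked the spots almost exactly as their median pixel intensity did (rank correlation 0.99997 to 0.99998 across arrays). From the scanner values, control and outlier spots were left out, log2 levels were set against each array's 75th percentile, and spots of a probe were averaged. Probes well above background on at least 4 of 8 arrays were tested, 35472 of 55681, with the brightest tested probe kept per gene. The test between groups was that of limma 3.58.1 under R 4.3.3 (two-sided, no covariates, Benjamini-Hochberg over 25330 genes). The same fit was also run on simulated data with known changes. Folds given with dim arrays set to the lowest level well above background cover no spread between arrays. They are no strict lower bound, since a spot can exceed that level without being called well above background. Summed marker levels are linear, relative to the 75th percentile.

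The arrays lay on 1 slide. No other precision can be given than that of 4 arrays per group. Group labels came from titles and source names, and descriptions naming other Rfx genes for mutant replicates 2, 3 and 4 were not used. Names came from RefSeq accessions for 26582 probes, from current symbols for 2602 and from older ones for 492, and 26005 kept the file's name. The members and lists were chosen with earlier results of these data known. Genes named are the 3 members, list members, the 5 genes most correlated with Ghrl and with Mboat4, and neighbouring genes. A gene that this rule covers is not reported here and was left out of the list counts. Alternatives were the background correction, scaling, filter, probe rule, outliers, slide row, replicate block, array weights, the deposited table and leaving out each array.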

Additional observations from a re-analysis of the deposited data

Results flagged for a closer look

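No array stood apart for Ghrl, Mboat4 or Ghsr in either group. Of 112 groups of 4 arrays examined over the genes given with values, 15 had an array far from the other 3 by Dixon's test, where chance gives about 1 in 20 (5.6), and 8 of the 15 were mutant replicate 1. That array read 2.16 for Cck (others 1.80 to 1.83), -5.52 for Rfx6 (others -3.37 to -3.02), -2.85 for Nkx2-2 (others -3.15 to -3.11) and 0.724 for Bche (others 1.96 to 2.04). It also read 1.80 for Lypla1 (others 2.13 to 2.18), 0.991 for Gnaq (others 1.47 to 1.52), 0.634 for Hhat (others 0.152 to 0.231) and 1.39 for Nmur2 (others 0.747 to 0.826).

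Mrap2 was low on control replicate 3 at -5.52 and on mutant replicate 4 at -5.40, against -2.06 to -1.95 in the other controls and -2.31 to -1.87 in the other mutants. Control replicate 4 was high for Hhat at 0.203 and low for Bglap2 at 0.0378. Control replicate 1 was high for the Ghrl neighbour Tatdn2 at 0.544 (others -1.46 to -1.19) and for the Ghsr neighbour Tnfsf10 at 0.622. The stomach gene Gkn3 was high on mutant replicate 3 at 2.33 (others -2.43 to -1.88).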

How the results depend on the processing

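Ghrl kept its call in 20 of 20 alternatives (-4.97 to -4.65, limma adjusted p 1.44e-07 to 5.14e-04). Mboat4 was lower in all 19 with a value and passed with array weights only (-2.18, limma adjusted p = 0.0186). A filter asking for signal on all 8 arrays removes Mboat4 and Ghsr. The Ghsr difference turned sign with normexp (0.0367), quantile normalization (0.00225) and the deposited table (0.00692), all at background. The cause of these and the following changes was not tested. Genes called lower, 14, became 7 with the replicate block and 27 with array weights. Genes called higher, 1, became 8 with normexp, 2 with quantile normalization, 2 with median scaling, 2 with no filter, 2 with the filter on all arrays, 4 with slide row as a block, 0 with the replicate block and 13 with array weights, and 0 to 8 without 1 array. Genes lower were 10 to 14 without 1 array. Ghrl against Sst gave -0.80 with normexp and -0.75 with the deposited table, and Ghrl against Nts -1.06 to -0.78 without 1 array. Scg2 lost its call in 5 alternatives.

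Replicate numbers did not pair the samples (correlations of deviations -0.093, 0.057, -0.069 and 0.091). With the replicate block Ghrl was -4.86 (limma adjusted p = 5.14e-04), Mboat4 had an adjusted p of 0.739, and Pyy (0.0548) and Isl1 (0.0559) missed the threshold in limma.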
